A study of Mus musculus with 6 samples.

Results

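The genes described here lie around Srf on mouse chromosome 17 and were chosen by location, with earlier results of these data known. Another 42 measured genes of the same stretch are not among them. Of 58 genes named, 55 were measured by at least 1 probe set whose platform annotation names that gene alone. These are 101 of the 34945 probe sets with a single gene in the table, and 55 of the 18193 genes tested. Runx2, which encodes a Runt-family transcription factor of bone, and Trerf1 have no such probe set, and Tomm6 shares its probe sets with Prickle4. In the order of the 1059 protein-coding genes of chromosome 17 the members run from Cd2ap, 50 genes from Srf on the side of Cul9, to Kif6, 56 genes from Srf on the side of Ptk7.

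LSK cells, the bone marrow fraction that lacks lineage markers and carries Sca1 and c-Kit, hold the hematopoietic stem cells and multipotent progenitors. Both groups were C57BL/6 mice with the Mx1-Cre transgene, whose promoter responds to interferon in many cell types, and both were injected with the interferon inducer pIpC, 3 times at 200 µg and 2 days apart, at 6 weeks of age. Control mice were Srf+/+ and SRF-null mice were Srf flx/flx, meaning that both copies of Srf carry loxP sites. Cells were sorted 35 days after the last injection from pooled animals, and each group has 3 arrays. The number of animals per pool is not stated in the sources used here, so every p-value measures only the spread between these samples. Part of that spread may be technical.

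A floxed allele brings along the DNA that flanks it. Gene targeting is done in embryonic stem cells, and the stretch of chromosome next to the targeted site stays with it through later crosses unless recombination separates them. Where the stem cells came from another strain, variants in that stretch can alter a neighbouring gene or the match between its transcript and an array probe. The question of the comparison was whether genes linked to Srf differ between Srf flx/flx and Srf+/+ cells. The SRF-null cells differ from control in the loss of SRF as well, and no Srf flx/flx group without deletion was measured. For every member, linked DNA and the loss of SRF therefore cannot be told apart here. The sources used here do not name the strain of the embryonic stem cells, and no genotype of the flanking DNA was measured.

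SRF binds the CArG box, CC and GG around a run of A or T, and acts at promoters of cytoskeletal and immediate early genes, its own among them. Promoter windows of RefSeq (GRCm38.p6), from 250 bases before to 50 bases after an annotated start, were found for 55 of the 58 members (80 windows). A CArG box lay in 0 of the 80 member windows and in 1.63% of all 32851 windows, searched on both strands. With a share that low, 0 of 80 does not set the members apart from other genes. Srf has 2 in its own window, and the 250 bases before its start are shown with the CArG boxes in capitals (chr17:46556163-46556412, minus strand).
Srf: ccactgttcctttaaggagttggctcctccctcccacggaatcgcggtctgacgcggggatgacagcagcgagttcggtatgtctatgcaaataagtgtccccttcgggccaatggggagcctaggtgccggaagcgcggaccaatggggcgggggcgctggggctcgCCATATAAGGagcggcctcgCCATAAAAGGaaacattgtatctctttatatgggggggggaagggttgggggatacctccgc
The next 3 stretches belong to the members with the smallest p, Tnfrsf21 (chr17:43016305-43016554, plus strand), Xpo5 (chr17:46202642-46202810, plus strand) and Usp49 (chr17:47630440-47630689, plus strand). Capitals mark CCAAT, the element bound by NF-Y, whose DNA-binding subunit is encoded by the member Nfya, or ATTGG, its match on the other strand. The Xpo5 stretch is the 169 bases between the starts of Xpo5 and Polh, which are transcribed away from each other.
Tnfrsf21: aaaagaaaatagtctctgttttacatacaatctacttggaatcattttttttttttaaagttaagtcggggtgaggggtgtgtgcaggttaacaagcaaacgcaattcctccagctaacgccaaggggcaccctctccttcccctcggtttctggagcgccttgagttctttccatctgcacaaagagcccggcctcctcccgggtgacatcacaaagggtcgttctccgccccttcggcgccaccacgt
Xpo5: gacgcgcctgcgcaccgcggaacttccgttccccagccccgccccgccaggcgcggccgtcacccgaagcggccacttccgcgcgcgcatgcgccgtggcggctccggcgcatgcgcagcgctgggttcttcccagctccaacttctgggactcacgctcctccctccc
Usp49: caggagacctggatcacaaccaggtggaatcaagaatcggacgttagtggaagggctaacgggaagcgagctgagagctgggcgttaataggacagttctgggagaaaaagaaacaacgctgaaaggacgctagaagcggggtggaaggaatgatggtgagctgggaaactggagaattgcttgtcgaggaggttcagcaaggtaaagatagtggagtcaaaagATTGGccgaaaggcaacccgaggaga
CCAAT lay in the windows of 23 of the 55 members, 41.8%, and in those of 41.1% of all 27025 genes. The absence of a motif says only that these letters are not in this window.

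Before normalization the arrays had median signals of 200.5 to 292.1, and values are normalized log2 signals, log2(signal + 16), on which a signal of 0 gives 4. A difference is SRF-null minus control, with the standard error (SE) of limma's fit over all 18193 genes. The brightness of different probe sets does not rank their transcripts. Control replicate 2 had the Y-linked Kdm5d at 4.0 against 10.54 to 11.98 on the other arrays. SRF-null replicate 1 had Xist, the transcript of the inactive X chromosome, at 5.03 against 15.13 to 16.24. Each of these 2 arrays carried transcripts of 1 sex and the other 4 arrays those of both. The pools of a group thus did not all hold the same animals. The fixed LSK markers that were measured (6 of 8, Kit and Cd34 among them, but not Ly6a, the Sca1 gene) averaged 15.32 to 15.67 on control and 15.18 to 15.62 on SRF-null arrays. Markers of monocytes and macrophages averaged 9.10 to 9.48 on control and 9.64 to 11.03 on SRF-null arrays, with 8 of 8 above the control mean and 4 at an unadjusted p under 0.05. Markers of T cells averaged 6.32 to 6.55 and 6.57 to 7.45, with 4 of 5 above the control mean and 2 at an unadjusted p under 0.05. Also above the control mean were 4 of 4 measured B cell, 4 of 4 megakaryocyte, 3 of 3 erythroid and 4 of 7 granulocyte markers. In each of these lists 0 had an unadjusted p under 0.05. Over all genes 5.74% had such a p. The part of these markers in the results below was not tested. A lower signal can come from fewer cells of a type or from less RNA per cell, and these cannot be told apart in a bulk sample.

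The targeted gene itself was at 13.04, 13.00 and 13.04 on control replicates 1, 2 and 3 and at 12.58, 12.43 and 12.80 on the SRF-null replicates. All 3 SRF-null arrays lay under all 3 control arrays, by −0.42 (SE 0.13, limma adjusted p = 0.771). Its dimmer probe set differed by 0.10 (SE 0.35). The sources used here do not place either probe set relative to the deleted part of Srf, so they do not measure how complete the deletion was.

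None of the 55 neighbours passed the test over all genes, and their differences were centred close to 0. By limma 0 of 55 members, and 0 of 18193 genes, had an adjusted p under 0.05. The median difference was −0.01 over the members and −0.01 over all genes, with 27 members above 0 and 28 below. An unadjusted p under 0.05 was reached by 7 members, or 12.7%, against 5.74% of all genes (2.91% higher and 2.83% lower). The SRF-null mean was higher in 4 of them and lower in 3. Among the 7, Abcc10 counts through a probe set that was the brighter only by its SRF-null values, as described below. The groups did not overlap for 7 members, also 12.7%, against 10.6% of all genes. The median size of a difference was 0.18 in the members and 0.14 in all genes, and differences over 1, a change by a factor of 2 on this scale, were found for 4 members and for 2.39% of all genes. Members' 95% intervals lay within 1 log2 unit of 0 for 38 of 55, where 78.3% of all genes had such an interval. For the other 17 members the arrays leave room for a difference above that size.

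**Figure D1:**
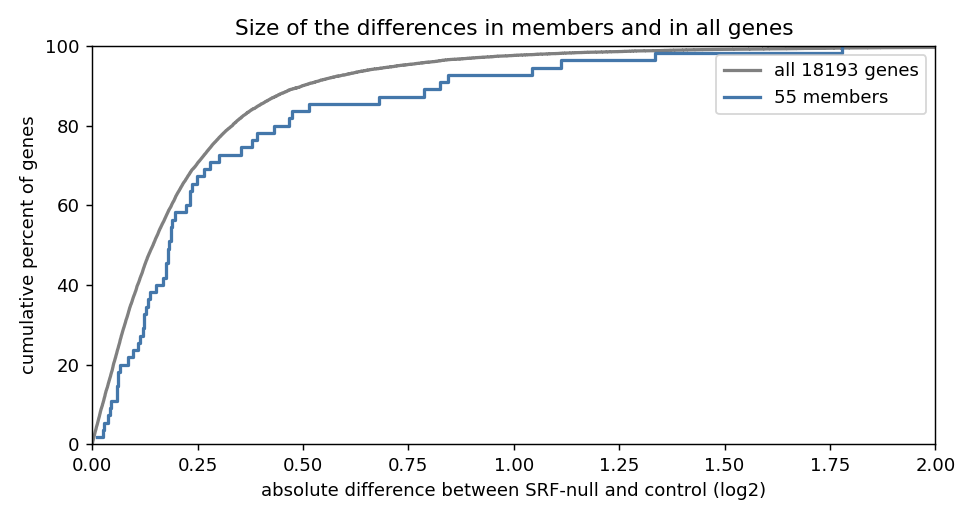
Cumulative percent of genes (vertical axis) whose absolute difference between SRF-null and control, in log2 units, is at or under the value on the horizontal axis, for the 55 members (blue) and all 18193 genes (grey). The blue line lies to the right of the grey over most of the range, with medians of 0.18 and 0.14.

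Among surface receptors and signalling genes the member with the smallest p was Tnfrsf21, which encodes death receptor 6 and lies 49 genes from Srf. It was at 14.44, 14.23 and 14.28 on the control arrays and at 15.14, 15.29 and 14.88 on the SRF-null arrays. Every SRF-null array lay above every control array, and the difference was 0.79 (SE 0.15, 1.73-fold, limma adjusted p = 0.535). Its dimmer probe set stood apart in the same direction, by 0.50 (SE 0.12). With control replicate 2 and SRF-null replicate 1 left out the difference was 0.73.

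Ptk7, the gene next to Srf, encodes a kinase-like receptor of Wnt signalling. It was dim, at 6.81, 7.42 and 7.87 on control arrays and 6.47, 6.27 and 6.89 on SRF-null arrays. Control replicate 1 lay below SRF-null replicate 3, so the groups overlapped, and the difference was −0.83 (SE 0.30, limma adjusted p = 0.845). Of the 14 measured genes of this role group 2 had an unadjusted p under 0.05 (14.3%, against 5.74% of all genes), and the group's median difference was 0.12. Nfkbie, an inhibitor of NF-κB, differed by 0.38 (SE 0.24) and the adaptor gene Cd2ap by 0.35 (SE 0.20), with overlapping groups in both. The Nfkbie difference was 0.13 without SRF-null replicate 2 and 0.60 without SRF-null replicate 3. Vegfa, the vascular growth factor gene, was at 9.47, 9.76 and 9.79 on control and 8.50, 9.22 and 10.12 on SRF-null arrays, so that SRF-null replicates 1 and 3 lay on opposite sides of all controls. Its difference was −0.39 (SE 0.40), and a dimmer probe set gave −0.97 (SE 0.66). Ptcra, the pre-T cell receptor alpha gene, and Trem2, a receptor of macrophages, had signals under 16 on all 6 arrays and differed by 0.17 (SE 0.14) and 0.12 (SE 0.14). The tau kinase gene Ttbk1, 3 genes from Srf, lay close to the floor as well (4.13 to 5.17) and differed by −0.12 (SE 0.32). The remaining 6 genes of the group, Unc5cl, Dlk2, Daam2, Ppp2r5d, Cnpy3 and Frs3, had overlapping groups and differences from −0.26 (Frs3, an adaptor of fibroblast growth factor receptors) to 0.68 (Unc5cl).

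**Figure D2:**
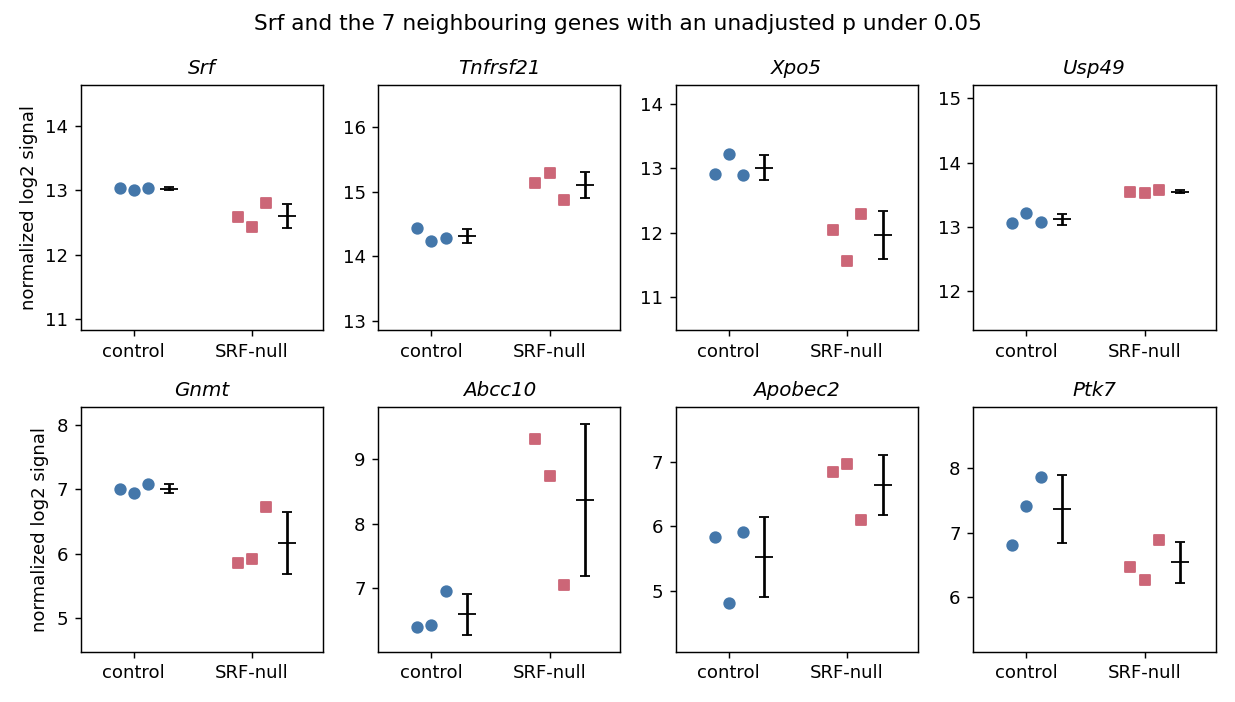
Normalized log2 signal of Srf and of the 7 members with an unadjusted p under 0.05, ordered by p, on each control (blue circles) and SRF-null array (red squares, replicates 1 to 3 from left to right), with mean and SD in black. Each panel spans the same range of log2 units, and the groups overlap for Ptk7 alone among these 8 genes.

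In the group of ribosome, translation, RNA export and DNA repair genes, Xpo5 had the most negative difference. Xpo5 encodes exportin-5, which carries microRNA precursors out of the nucleus, and lies 13 genes from Srf. Its brighter probe set was at 12.91, 13.23 and 12.89 on control arrays and at 12.05, 11.56 and 12.30 on SRF-null arrays. The groups did not overlap, and the difference was −1.04 (SE 0.22, 2.06-fold, limma adjusted p = 0.557). The other probe set of the same gene did not follow it, at −0.14 (SE 0.25), with overlapping groups. With control replicate 2 and SRF-null replicate 1 left out the brighter probe set differed by −0.97.

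Polh, which encodes the translesion DNA polymerase eta and starts 169 bases from Xpo5 in the stretch printed above, differed by 0.19 (SE 0.13) on its brightest probe set. Its other 3 probe sets differed by −0.28, −0.22 and 0.02, each less than its SE. Apobec2, of the cytidine deaminase family, lies 50 genes from Srf and was dim: 5.84, 4.81 and 5.92 on control arrays against 6.84, 6.96 and 6.10 on SRF-null arrays. The groups did not overlap on it, and the difference was 1.11 (SE 0.37, limma adjusted p = 0.808). Without control replicate 2 and SRF-null replicate 1 it fell to 0.65, with an unadjusted limma p of 0.126, and without control replicate 2 alone it was 0.76. Its second probe set gave 5.75, 4.14 and 4.64 against 6.60, 7.63 and 6.31, a difference of 2.01 (SE 0.52) in the same direction. Such folds depend on the offset of 16, since some of these signals were under 16 before normalization. The ribosome-related genes differed little: Rpl7l1 by −0.19 (SE 0.15), Mrpl2 by 0.10 (SE 0.12) and Mrps18a by −0.01 (SE 0.17). Bysl, needed to build the small ribosomal subunit, differed by −0.51 (SE 0.40), and the mitochondrial alanyl-tRNA synthetase gene Aars2 by −0.04 (SE 0.37).

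Of the 10 measured transcription and chromatin genes 1, Usp49, had an unadjusted p under 0.05 (10%, against 5.74% of all genes). It encodes a deubiquitinase of histone H2B and lies 30 genes from Srf. Control arrays were at 13.07, 13.22 and 13.07 and SRF-null arrays at 13.55, 13.53 and 13.57. The SRF-null arrays lay within 0.04 of each other and all above the controls, and the difference was 0.43 (SE 0.11, 1.35-fold, limma adjusted p = 0.631). A second Usp49 probe set was near the floor, at 4.77 to 4.81 on control and 4.32 to 4.88 on SRF-null arrays, and differed by −0.18 (SE 0.17). Nfya differed by −0.07 (SE 0.11) on its brightest probe set, and by 0.72 (SE 0.33) and 0.41 (SE 0.50) on the others. Tfeb, a regulator of lysosomal genes, differed by −0.06 (SE 0.28). The other 7 were the gene of a subunit shared by RNA polymerases I and III, Polr1c, the splicing factor gene Cdc5l, the Mediator gene Med20, the SAGA gene Supt3, the zinc finger gene Zfp318, the forkhead gene Foxp4 and Mdfi. Their groups overlapped, and their differences ran from −0.09 (Polr1c) to 0.14 (Med20). All 10 of these genes had a 95% interval within 1 log2 unit of 0.

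The 8 transporter and enzyme genes held 2 with an unadjusted p under 0.05 and 3 whose groups did not overlap, with a median difference of 0.04. Over all genes these shares were 5.74% and 10.6%, and 8 genes are too few to set against them. Gnmt encodes the glycine methyltransferase that uses S-adenosylmethionine, and lies 10 genes from Srf. It was at 7.0, 6.94 and 7.08 on control arrays and 5.86, 5.92 and 6.72 on SRF-null arrays, with no overlap and a difference of −0.84 (SE 0.25, limma adjusted p = 0.740). Abcc10, a multidrug transporter gene 7 genes from Srf, was at 6.40, 6.42 and 6.96 against 9.32, 8.75 and 7.05. SRF-null replicates 1 and 2 stood well above the controls and replicate 3 just above them, for a difference of 1.78 (SE 0.58, limma adjusted p = 0.783). Without control replicate 2 and SRF-null replicate 1 it was 1.22. This probe set stands for Abcc10 by its mean over all 6 arrays. On control arrays the gene's other probe set was the brighter, with a mean of 7.02 against 6.59, and it differed by −0.60 (SE 0.34). The choice of probe set for Abcc10 thus rests on the SRF-null values.

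Slc22a7, an organic anion transporter gene, had no overlap either, but the gap was small: its highest control was 4.95 and its lowest SRF-null value 4.98, and it differed by 0.12 (SE 0.11). Its signals were near the floor, under 16 on 4 arrays. Dnph1, a nucleotide-cleaving enzyme gene 2 genes from Srf, differed by −0.22 (SE 0.36), and the nucleoside transporter gene Slc29a1 by −0.18 (SE 0.42). Oard1, which encodes a hydrolase of ADP-ribose esters, differed by 0.17 (SE 0.14). The testis calpain gene Capn11 was at the floor of 4.0 on 5 arrays and at 8.01 on SRF-null replicate 2, so its difference of 1.34 (SE 1.08) rests on that array.

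In the group of ubiquitin, organelle and trafficking genes 0 of 7 had an unadjusted p under 0.05, against 5.74% of all genes. Cul9, which encodes a scaffold of ubiquitin ligases and is the neighbour of Srf opposite to Ptk7, was at 11.23, 11.63 and 11.41 on control and 10.66, 11.34 and 10.88 on SRF-null arrays. SRF-null replicate 2 lay within the control range, and the difference was −0.47 (SE 0.21, limma adjusted p = 0.874). Without control replicate 2 and SRF-null replicate 1 it was −0.21. Its second probe set differed by 0.25 (SE 0.33). In limma's fit with replicate number as a block, where 8.12% of all genes had an unadjusted p under 0.05, Cul9 reached an unadjusted p of 0.0195 (adjusted p = 0.526) and joined the same 7 members. Ubr2, a ubiquitin ligase gene of the N-degron pathway, differed by 0.04 (SE 0.18), and Tjap1, a tight junction protein gene, by −0.18 (SE 0.21). The tubulin folding gene Tbcc differed by 0.30 (SE 0.31) and the mitotic checkpoint gene Mad2l1bp by −0.20 (SE 0.14).

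The microtubule, cilium and tissue-restricted genes likewise had 0 of 7 with an unadjusted p under 0.05 and a median of −0.13. Klc4, a kinesin light chain gene 2 genes from Srf, differed by 0.23 (SE 0.20) and Mea1, 7 genes away, by 0.18 (SE 0.13). The cilium gene Rsph9 differed by −0.18 (SE 0.39), the kinesin gene Kif6 by −0.28 (SE 0.18), the LIM domain gene Crip3 by −0.13 (SE 0.18) and Tcte1 by 0.47 (SE 0.48), all with overlapping groups. Prph2, a photoreceptor gene, had signals under 16 on all 6 arrays, as had the pepsinogen gene Pgc of the enzyme group, and they differed by −0.25 (SE 0.20) and −0.04 (SE 0.20).

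Members with an unadjusted p under 0.05 lay both near Srf and far from it. Within 10 genes of Srf 3 of 16 measured members (18.8%) had an unadjusted p under 0.05 (Abcc10, Ptk7 and Gnmt). At 11 to 30 genes 2 of 22 did (9.09%), and beyond 30 genes 2 of 17 (11.8%), against 5.74% of all genes. The median size of a difference was 0.20, 0.19 and 0.12 in these stretches. Signed medians were 0.02, −0.02 and 0.06, and no test was made between the stretches. Srf and its nearest member on each side, Cul9 and Ptk7, had negative differences, while the next measured members had −0.22 (Dnph1) on the Cul9 side and 0.23 (Klc4) and 0.10 (Mrpl2) on the Ptk7 side. Cul7, not among the members, lies 4 genes from Srf on the Ptk7 side and differed by −0.46 (SE 0.16). All measured genes between Cd2ap and Kif6 except Srf were also counted at the same distances. An unadjusted p under 0.05 was reached by 4 of 20 (20%), 4 of 37 (10.8%) and 5 of 40 (12.5%). In the nearest stretch Abcc10 enters both counts through a probe set that was the brighter only by its SRF-null values. The same holds in the farthest stretch for Mocs1, described below, which is not a member.

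**Figure D3:**
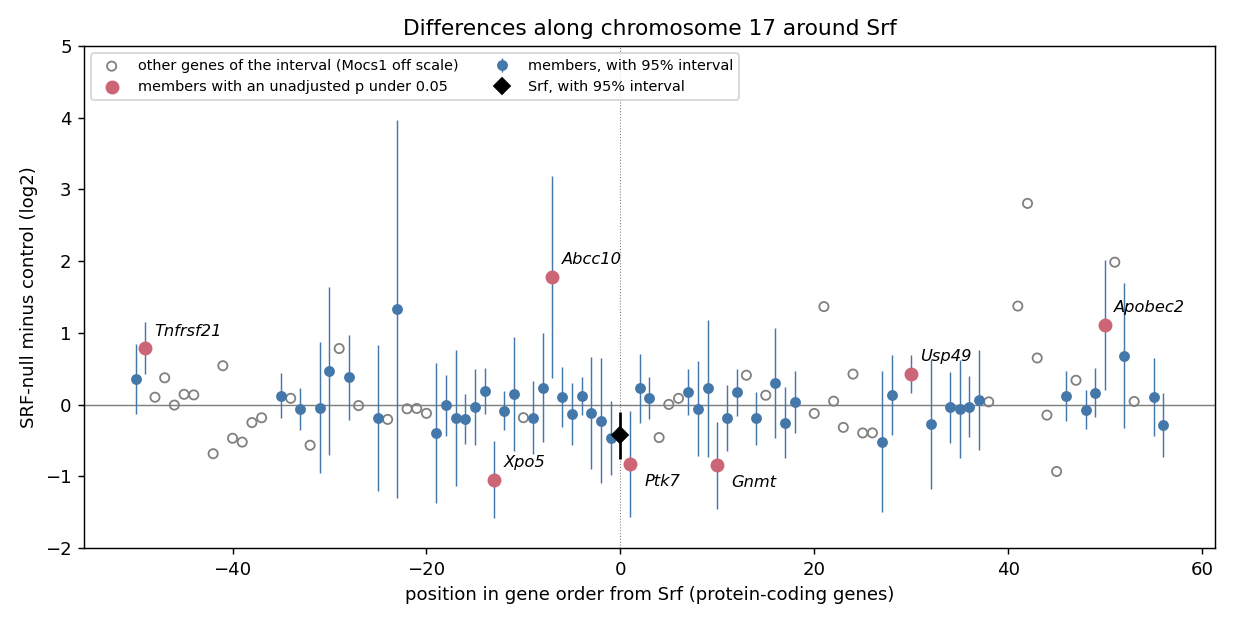
Difference between SRF-null and control (vertical axis, log2) against position in gene order from Srf (horizontal axis, protein-coding genes, with the Cul9 side negative), for members (blue, 95% intervals), members with an unadjusted p under 0.05 (red), Srf (black) and other genes of the stretch (grey circles). Red points occur at positions from −49 to 50, on both sides of 0, among many members close to 0.

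Of the other genes lying between Cd2ap and Kif6, 42 were measured, and 6 of them had an unadjusted p under 0.05 (4 with a higher and 2 with a lower SRF-null mean). Together with the members this gives 13 of 97 genes. Among the 6, Mocs1, a molybdenum cofactor gene 54 genes from Srf, had by far the largest difference (5.02, SE 0.36, limma adjusted p = 0.121). It was also the most positive difference, with the smallest p, of all 18193 genes. The probe set was picked by its mean over all 6 arrays. On control arrays the second Mocs1 probe set was the brighter, with a mean of 7.03 against 5.57, and it differed by −0.72 (SE 0.50). Like that of Abcc10, the place of Mocs1 among the 13 genes thus rests on the SRF-null values. The groups were also separate for Taf8 (−0.39), a subunit gene of TFIID, the cullin gene Cul7 (−0.46) and 2310039H08Rik (0.41), and overlapped for Trem3 (2.81) and Tspo2 (1.99). None passed the adjustment. On chromosome 17 outside this stretch 7.76% of 670 genes had an unadjusted p under 0.05, and on other chromosomes 5.59% of 17197.

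Several probe sets stand for 30 of the 55 members, and in 14 of these the differences had both signs, where 53% of the 9010 genes with several probe sets did. Over all 101 member probe sets 14 had an unadjusted p under 0.05, or 13.9%. In the same fit 4.69% of the 34945 probe sets naming 1 gene did, and 4.39% of all 45037 probe sets. The groups did not overlap for 16, or 15.8%, against 9.81% of those naming 1 gene and 9.23% of all. None passed the adjustment, and probe sets of 1 gene are not independent.

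Pex6, which encodes an ATPase that recycles peroxisome import receptors, lies next to Gnmt and shows how much depends on the probe set. Its brightest probe set, which stands for the gene above, was at 12.42, 12.51 and 13.17 on control and 12.24, 13.64 and 12.92 on SRF-null arrays and differed by 0.23 (SE 0.40). The next brightest was at 10.64, 10.92 and 11.27 against 10.02, 10.09 and 10.51, with no overlap and a difference of −0.74 (SE 0.22). Another gave 9.32, 9.48 and 9.94 against 8.55, 8.90 and 9.04, or −0.75 (SE 0.22), and the next 6.58, 6.93 and 6.36 against 6.11, 5.50 and 5.78, or −0.83 (SE 0.23). The dimmest differed by −0.35 (SE 0.23). Thus 4 of 5 Pex6 probe sets had a lower SRF-null mean, 3 of them without overlap, and the brightest did not.

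Gtpbp2, a GTPase gene of ribosome rescue, differed by −0.03 (SE 0.22), 0.39 (SE 0.25) and −0.15 (SE 0.18) on 3 probe sets. The dimmest was at 8.34, 7.39 and 7.42 on control and 9.53, 10.62 and 8.46 on SRF-null arrays, all higher than every control, and differed by 1.82 (SE 0.58). Abcc10 had 1.78 on the probe set given above and −0.60 (SE 0.34) on the other, where the groups overlapped. Yipf3, a Golgi membrane protein gene, had a brighter probe set at a difference of 0.15 (SE 0.33). Its dimmer probe set had all SRF-null arrays above the controls, at 0.78 (SE 0.31). Only in Tnfrsf21, Apobec2 and Pex6 among the members were 2 or more probe sets without overlap in 1 direction. The share of all genes with several probe sets that show the same was not counted, so this has no background to be read against. Where on each transcript these probe sets lie, and whether a variant falls under a probe, was not tested.

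**Figure D4:**
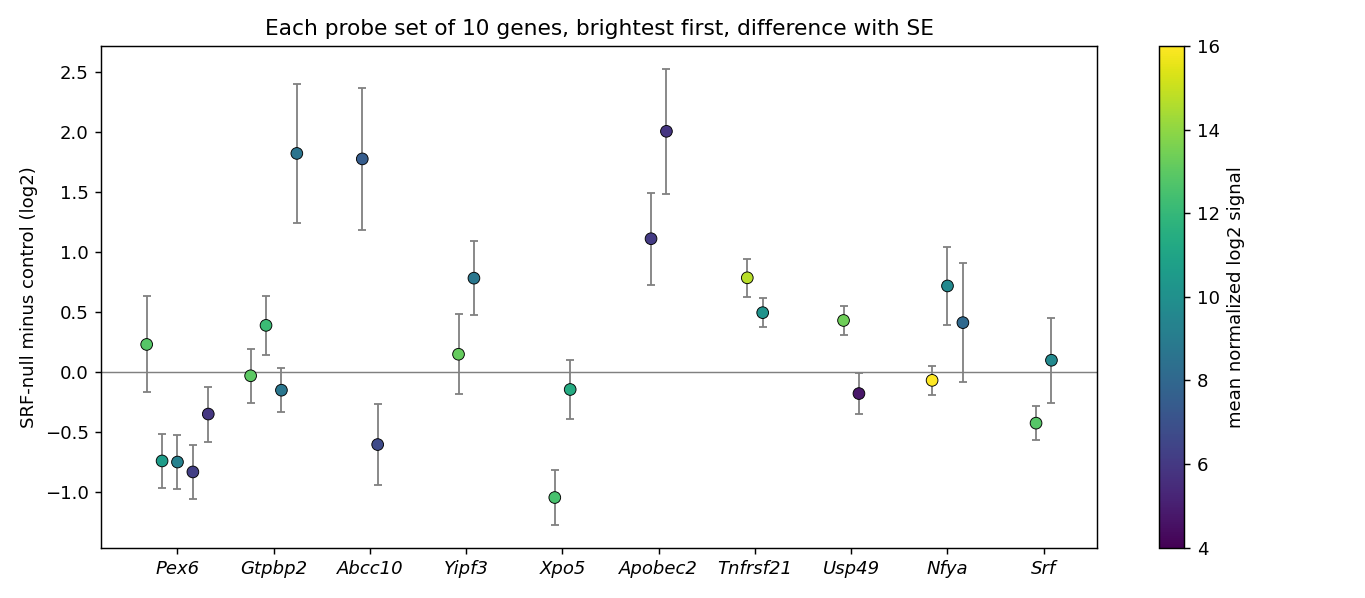
Difference between SRF-null and control (vertical axis, log2, with SE) for every probe set of 9 members and of Srf, arranged from brightest to dimmest within each gene and coloured by mean normalized log2 signal. Both probe sets of Tnfrsf21 and of Apobec2 lie above 0, while those of Pex6, Gtpbp2, Abcc10, Usp49, Nfya and Srf fall on both sides of it.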

How the data were processed

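Gene expression was measured on 6 Affymetrix arrays, 3 per genotype, from 30 ng of RNA amplified with NuGEN reagents, per the labels' protocols. The table deposited by the authors holds 1 linear intensity per probe set and array, and the sources used here do not say how it was summarised and scaled. The study names another version of the array than the table's 45101 probe sets belong to, and the table was used as it stands. Of these, 64 were controls, 34945 named 1 gene, 932 several and 9160 none. RefSeq (GRCm38.p6) gave gene order, matching 34741 of the single-gene probe sets by gene ID.

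Intensities were converted to log2(value + 16) and quantile normalized, since array medians differed by 0.51. The brightest probe set stood for a gene, with no filter on dim genes. SRF-null was compared with control with lmFit and eBayes of limma 3.58.1 (R 4.3.3), in both directions, with genotype alone in the model and Benjamini-Hochberg adjustment over 18193 genes, or over 45037 probe sets in a second fit. The number of arrays limits the precision.

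Named genes were Srf and the 4 nearest measured members on each side, members with separate groups or an unadjusted p under 0.05, members with probe sets of opposite sign of which 1 had an unadjusted p under 0.05, a set with known roles, the brightest and dimmest of each role group, and other genes of the stretch with separate groups and an unadjusted p under 0.05; a few further members and genes are named to complete a count or a group, after their values were seen. Members, lists and rules were chosen with earlier results of these data known. Arrays of equal replicate number deviated together (correlations of 0.20, 0.13 and 0.37 over 18193 genes), so a fit with that number as a block was an alternative. Figures were drawn with matplotlib 3.10.9.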

Additional observations from a re-analysis of the deposited data

How the results depend on the processing

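The 17 alternatives changed the offset, the normalization between arrays, the filter on dim genes, the treatment of several probe sets, the variance model, the pairing and the arrays included. The count of members past an adjusted p of 0.05 was 0 in all of them, and their median difference stayed between −0.05 and 0.07. The count with an unadjusted p under 0.05, 7 in the report, was 3 of 33 with only genes above the median level (6.98% of all such genes), 14 of 101 with each probe set as a feature and 8 with the replicate block. Leaving out 1 array gave 5 to 11 (4.14% to 8.31% of all genes), the 11 being without SRF-null replicate 3 (6.41%). Leaving out control replicate 2 and SRF-null replicate 1 together gave 4, against 3.79% of all genes, and 3 of the 7 were among those 4. With only genes above the median level, the groups did not overlap for 3 of 33 members (9.09%), against 11.8% of all such genes. There the members' share lay under that of all genes, while in the report it lay above (12.7% against 10.6%). With each probe set as a feature the count was 16 (15.8%, against 9.23% of all probe sets). It was 10 to 19 with 1 array left out and 17 with both of those arrays left out. Fewer arrays make separation easier, and with arrays left out 17.6% to 28.3% of all genes had it.

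Of 35 named genes 25 kept their direction in every alternative that could be fitted, Srf and all 7 members with an unadjusted p under 0.05 among them, and 10 did not. With the mean of all probe sets the difference of Gtpbp2 turned to 0.51, of Nfya to 0.36, of Pex6 to −0.49 and of Polh to −0.073, which follows from the disagreement between their probe sets. With both of those arrays left out it turned to 0.11 for Tfeb, −0.13 for Ubr2 and 0.039 for Vegfa. With 1 array left out it ranged from −0.62 to 0.018 for Dnph1, −0.17 to 0.16 for Gtpbp2, −0.12 to 0.58 for Pex6, −0.61 to 0.22 for Slc29a1, −0.36 to 0.16 for Tfeb, −0.43 to 0.10 for Ttbk1 and −0.049 to 0.19 for Ubr2; the cause was not tested. With 1 array left out the difference moved by over 1.5 times for 21 of the 35, Nfkbie, Klc4, Polh and Vegfa among them, and for 0 of Srf and the 7 members with an unadjusted p under 0.05. A small p by itself favours a difference that moves little when 1 array is left out. Mocs1 passed the limma adjustment after median centring (adjusted p = 0.00271) and when the variance was trended and robust (0.00935), and its adjusted p ranged up to 0.963 over the alternatives. Signals near the floor limit Apobec2, Capn11, Pgc, Prph2, Ptcra, Slc22a7, Trem2 and Ttbk1.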

Other observations

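Tomm6, which encodes a small subunit of the mitochondrial import pore, is named only together with Prickle4 on 2 probe sets, which differed by 0.26 (SE 0.22) and 0.20 (SE 0.15) with overlapping groups. A probe set that names Usp49 together with Med20 differed by −0.36 (SE 0.54), while the 2 probe sets of Usp49 alone differed by 0.43 and, near the floor, by −0.18.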
